A study of Homo sapiens with 12 samples.

Results

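The genes described here run glycolysis and the response to low oxygen. They are 36 genes picked by name for their known roles: glucose transporters, glycolytic enzymes and their regulators, enzymes that decide the fate of pyruvate, the alpha subunits of the hypoxia-inducible factors (HIF) with the hydroxylases that control them, and other known HIF targets. Of the 36, 33 had a probe set annotated to 1 gene symbol and were measured, out of 18417 genes on the arrays. PGAM1, CA9 and SLC16A3 were not analysed here.

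The cells were EA.hy926, an established human hybrid line whose parents were endothelial cells of the umbilical vein and a lung carcinoma line. They were kept at either of 2 folate levels. Hi cells grew with 9 uM (4 mg/L) folic acid, the usual level for the line, and Lo cells were a parallel culture adapted to 23 nM, the folic acid content of the unsupplemented medium. Both media held 10% fetal calf serum, non-essential amino acids and antimicrobials. At confluence the medium was changed, and 24 h later cells were given 0.5 uM pemetrexed (PMX) for 48 h or served as controls. Pemetrexed is an antifolate drug that inhibits thymidylate synthase and other folate-dependent enzymes. The 4 groups were Hi control, Hi PMX, Lo control and Lo PMX, each with 3 arrays labelled as biological replicates. All came from a single line and each folate level from its own adapted culture, so folate level and culture history cannot be told apart, and p-values measure the spread between these replicates only.

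Glycolysis turns glucose into pyruvate in the cytosol, with glucose uptake, hexokinase and phosphofructokinase as its main control points. When oxygen is low, HIF alpha subunits escape prolyl hydroxylation and degradation, pair with ARNT and raise transcription of most glycolytic enzymes, of lactate dehydrogenase and of genes such as NDRG1 and CA12. Endothelial cells draw much of their ATP from glycolysis, and PFKFB3 is a known driver of that flux in sprouting vessels. Medium folate is not a substrate of this pathway, and no low-oxygen group was part of the samples analysed.

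HIF binds DNA at the core letters ACGTG or GCGTG. Reference promoter windows were used for 30 of the 33 measured genes (RefSeq, GRCh38.p14), taken as the 250 bases before each annotated start. No window was used for SLC2A3, BNIP3L or NDRG1. The 6 printed here belong to genes with higher signal in treated Lo cells (SLC2A1, HK2, PFKFB3, CA12, P4HA1) and to LDHA, a classical HIF target that showed no such difference. Each is written 5′ to 3′ on the gene's own strand, and capitals mark ACGTG or GCGTG on either strand (CACGT and CACGC are their reverse complements). Where 2 starts are annotated, the first is shown for HK2 and LDHA and the other for PFKFB3. The windows not printed held 1 GCGTG and no ACGTG in PFKFB3 and in LDHA, and 2 of each in HK2.
SLC2A1, chr1:42958869-42959118, minus strand: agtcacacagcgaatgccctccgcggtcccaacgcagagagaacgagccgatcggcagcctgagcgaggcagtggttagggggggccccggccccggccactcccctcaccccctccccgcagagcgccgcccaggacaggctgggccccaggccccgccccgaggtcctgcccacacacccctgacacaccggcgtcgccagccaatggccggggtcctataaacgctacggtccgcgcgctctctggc
HK2, chr2:74833877-74834126, plus strand: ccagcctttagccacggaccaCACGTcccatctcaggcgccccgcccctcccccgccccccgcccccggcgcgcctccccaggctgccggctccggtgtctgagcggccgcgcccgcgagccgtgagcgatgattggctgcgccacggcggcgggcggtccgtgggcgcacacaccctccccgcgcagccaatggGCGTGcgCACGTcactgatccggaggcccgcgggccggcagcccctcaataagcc
PFKFB3, chr10:6202682-6202931, plus strand: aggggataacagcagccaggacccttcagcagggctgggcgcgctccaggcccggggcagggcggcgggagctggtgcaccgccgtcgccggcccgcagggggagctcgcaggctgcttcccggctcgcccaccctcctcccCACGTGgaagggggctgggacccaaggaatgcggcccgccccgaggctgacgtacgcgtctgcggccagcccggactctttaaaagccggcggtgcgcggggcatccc
CA12, chr15:63381847-63382096, minus strand: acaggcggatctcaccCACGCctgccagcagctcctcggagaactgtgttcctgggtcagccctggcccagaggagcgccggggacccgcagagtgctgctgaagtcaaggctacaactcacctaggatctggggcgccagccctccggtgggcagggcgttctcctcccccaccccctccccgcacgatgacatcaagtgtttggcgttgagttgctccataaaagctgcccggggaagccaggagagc
P4HA1, chr10:73096867-73097116, minus strand: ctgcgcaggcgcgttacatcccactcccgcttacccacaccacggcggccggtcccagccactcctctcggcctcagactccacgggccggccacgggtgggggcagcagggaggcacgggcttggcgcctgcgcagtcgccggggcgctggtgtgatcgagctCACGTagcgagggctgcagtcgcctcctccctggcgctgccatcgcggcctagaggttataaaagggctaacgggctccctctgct
LDHA, chr11:18394313-18394562, plus strand: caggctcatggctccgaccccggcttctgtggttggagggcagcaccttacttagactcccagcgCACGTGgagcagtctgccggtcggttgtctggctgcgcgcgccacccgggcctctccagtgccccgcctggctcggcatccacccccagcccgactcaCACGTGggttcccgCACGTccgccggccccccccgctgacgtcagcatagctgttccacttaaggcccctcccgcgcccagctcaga
The SLC2A1 window held neither core, the LDHA window held 3 ACGTG sites, the HK2 window 2 ACGTG and 1 GCGTG, and the P4HA1 and PFKFB3 windows 1 ACGTG each, which in PFKFB3 was part of the palindrome CACGTG.

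Over all annotated starts, 18 of the 30 genes (60.0%) had ACGTG on either strand of a 250-base window, against 25.7% of the 14239 tested genes with a window. GCGTG was found in 60.0% of these genes and 46.4% of tested genes, and CACGTG, which overlaps ACGTG, in 26.7% and 9.8%. A gene with more annotated starts has more windows to match. Counted per window, ACGTG was in 21 of the 50 windows of the listed genes and in 20.3% of the 20109 windows of tested genes. GCGTG was likewise in 21 of the 50, and in 38.5% of all windows, so per window its share was close to that of tested genes. Of the 7 genes with a window that rose in treated Lo against treated Hi cells, 4 held ACGTG, and of the 22 that were not called, 14 did. These shares describe the sequence of the listed genes, and a match is not a binding site.

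Array medians lay between 7.24 and 7.33 on the deposited log2 scale, and the precision was limited by the 3 arrays in a group. The third array of each control group lay beside the other folate level. On the first principal component of all genes, Hi control replicate 3 stood at 8.94 beside the other Lo controls (6.75 and 7.18), and Lo control replicate 3 stood at -19.3 among the other Hi arrays (-20.1 to -17.8). The labels were kept, and results are given with all arrays and with the 10 arrays left without these 2. Both were picked out by the values themselves, so leaving them out favours a separation of Lo and Hi controls. The p-values with 10 arrays do not allow for that choice. The comparison of Lo PMX with Hi PMX has neither array in its means, and leaving the 2 out changes its error but not its differences. The endothelial markers PECAM1, CDH5 and ENG were in the top 2% of genes, while VWF, CLDN5 and EMCN of the same list of 12 were at percentiles 50.5, 45.3 and 19.0. The epithelial keratins KRT7, KRT8 and KRT18 were bright and KRT19 was at percentile 44.7, while EPCAM and CDH1 were dim. Of the fibroblast and smooth muscle list, DCN and LUM were dim, but ACTA2 and COL1A1 were at percentiles 94.9 and 53.9. Of the leukocyte list, PTPRC was dim and CD14 was highest, at percentile 34.5.

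With PMX in both groups, Lo cells had higher signal than Hi cells for the glucose transporter SLC2A1 (2.35-fold), hexokinase HK2 (1.88-fold) and the regulator PFKFB3 (1.84-fold). They also had more CA12 (1.98-fold), P4HA1 (1.78-fold) and NDRG1 (1.41-fold), all known HIF targets. HIF1A itself was lower, at 0.75-fold. In all, 8 of the 33 genes rose and 1 fell at an adjusted p under 0.05 in limma's moderated test (called, from here on), where 22.3% of all genes tested were called. That share was 11.3% higher and 11.0% lower, and the median difference over the 33 genes was 0.04 against 0.01 for all genes (log2). The total of 9 calls is thus close to the background, and the direction was uneven among those called. With 10 arrays, 9 rose and 1 fell, and 27.7% of all genes were called (13.7% of all genes higher). The replicate block in 10 arrays also called 10 members, where 35.6% of all genes were called. In whole cultures, fewer cells of a type and less RNA per cell cannot be told apart.

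**Figure D1:**
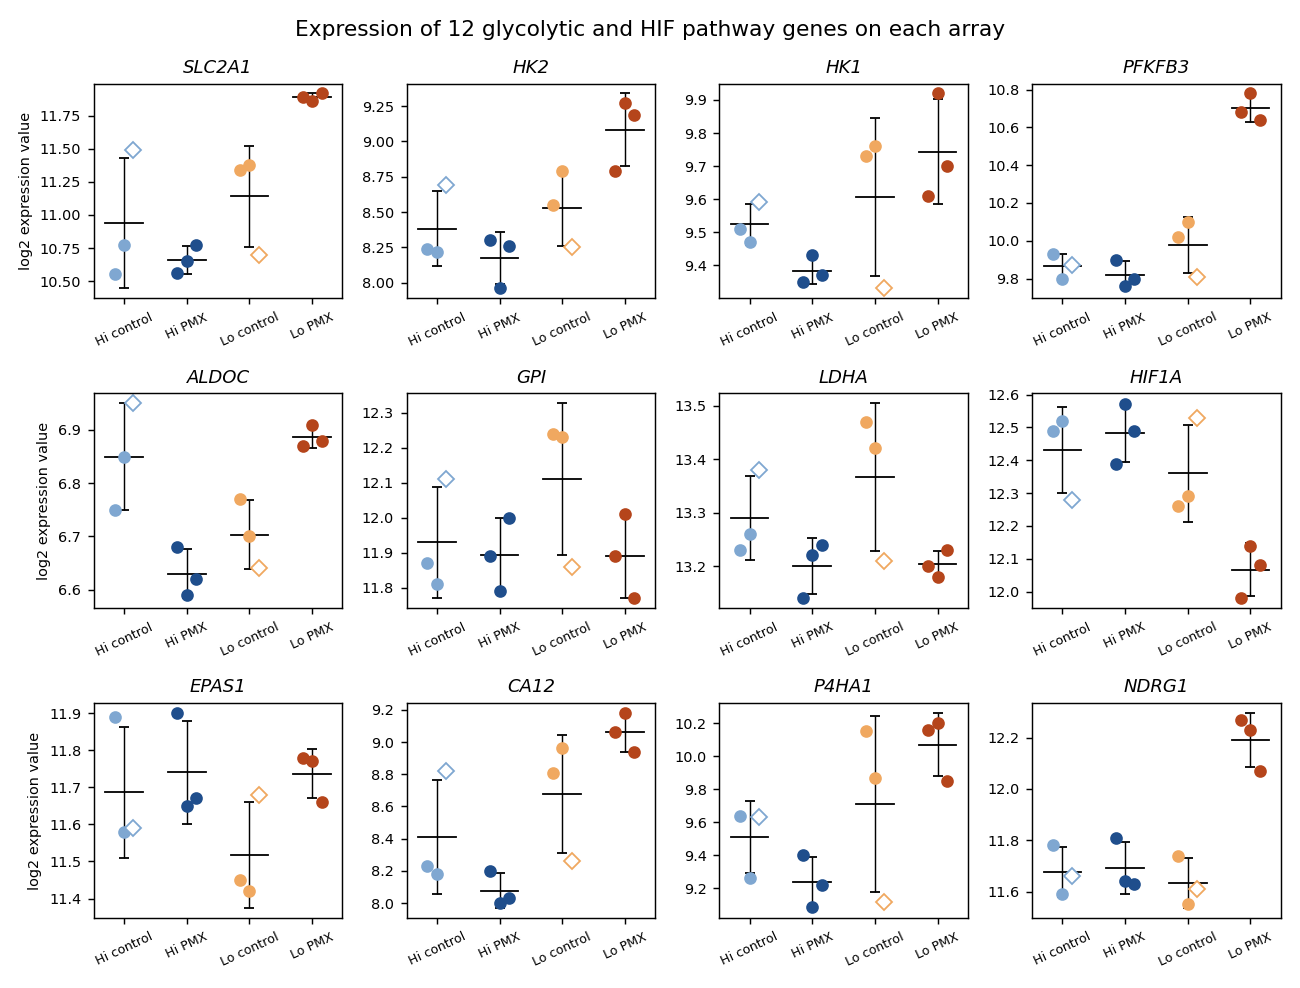
Log2 expression value of 12 genes on each of 12 arrays, by group (Hi control, Hi PMX, Lo control, Lo PMX). Points are arrays, horizontal lines are group means, bars are ±1 SD (n = 3), and open diamonds are the 2 control arrays labelled replicate 3. The Lo PMX arrays stand above every other array for SLC2A1 (11.86 to 11.92), PFKFB3 (10.64 to 10.78) and NDRG1 (12.07 to 12.27), and below every other array for HIF1A (11.98 to 12.14).

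SLC2A1 encodes GLUT1, the basal glucose transporter of endothelial cells. Its log2 values were 10.56, 10.65 and 10.77 in Hi PMX and 11.89, 11.86 and 11.92 in Lo PMX. Hi controls gave 10.55, 10.77 and 11.49, and Lo controls 11.34, 11.38 and 10.70, where the last of each is the array labelled replicate 3. The Lo PMX arrays were above all others, and without the 2 doubted arrays the Lo controls lay between the Hi arrays and Lo PMX with no overlap. Lo PMX exceeded Hi PMX by 1.23 ± 0.21 (log2, SE, n = 3 and 3, limma adjusted p = 0.00162). SLC2A3, which encodes the high-affinity transporter GLUT3, showed no such shift, with 10.85 to 11.13 in Hi PMX and 10.75 to 11.06 in Lo PMX. Its difference was -0.03 with a 95% confidence interval of -0.29 to 0.22.

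Hexokinases trap glucose inside the cell as glucose 6-phosphate. HK2, the inducible isozyme that HIF is known to raise, measured 8.30, 7.96 and 8.26 in Hi PMX and 8.79, 9.27 and 9.19 in Lo PMX. The groups did not overlap, and the difference was 0.91 ± 0.17 (limma adjusted p = 0.00262). Its controls were 8.24, 8.22 and 8.69 in Hi cells and 8.55, 8.79 and 8.25 in Lo cells, so the lowest Lo PMX array equalled the highest Lo control. HK1, the widely expressed isozyme, measured 9.35, 9.43 and 9.37 in Hi PMX and 9.61, 9.92 and 9.70 in Lo PMX. This was a smaller rise of 0.36 ± 0.11 (limma adjusted p = 0.0349), and 2 of the 3 Lo PMX arrays lay below the Lo controls labelled replicates 1 and 2. HK1 was 9.51, 9.47 and 9.59 in Hi control and 9.73, 9.76 and 9.33 in Lo control. The HK1 call was lost when any Hi PMX array, Lo PMX replicate 2 or Lo PMX replicate 3 was left out (adjusted p = 0.0665 to 0.143), whereas with 10 arrays it was kept (adjusted p = 0.00485).

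In upper glycolysis, 2 of 8 genes rose and none fell, a share near the 22.3% of all genes called. PFKFB3 makes fructose 2,6-bisphosphate, the strongest activator of phosphofructokinase. It measured 9.90, 9.76 and 9.80 in Hi PMX, 10.02, 10.10 and 9.81 in Lo control and 10.68, 10.78 and 10.64 in Lo PMX, with Hi controls at 9.93, 9.80 and 9.87. The Lo PMX arrays formed a group of their own more than 0.5 above every other array. The difference from Hi PMX was 0.88 ± 0.08 (limma adjusted p = 4.42e-05, the lowest among the 33 genes with all arrays). PFKFB4, which catalyses the same reactions, measured 7.37 to 7.56 in Hi PMX and 7.47 to 7.70 in Lo PMX, a difference of 0.14 with an interval of -0.06 to 0.33.

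Of the phosphofructokinase subunits, PFKP measured 11.46, 11.37 and 11.36 in Hi PMX and 11.68, 11.68 and 11.55 in Lo PMX. Its difference of 0.24 ± 0.10 missed the threshold with all arrays (limma adjusted p = 0.111) and passed it with 10 (0.24 ± 0.07, adjusted p = 0.0263), although the groups did not overlap. Its controls were 11.46, 11.34 and 11.54 in Hi cells and 11.74, 11.64 and 11.34 in Lo cells, so the undoubted Lo controls were as high as Lo PMX. PFKL, the liver-type subunit, differed by -0.10 ± 0.07 and was not called in either fit. ALDOC, the brain-type aldolase, measured 6.68, 6.59 and 6.62 in Hi PMX and 6.87, 6.91 and 6.88 in Lo PMX, a difference of 0.25 ± 0.07 (limma adjusted p = 0.0195). This is a small step on a dim probe set. The Hi controls were 6.75, 6.85 and 6.95, and the Lo controls 6.77, 6.70 and 6.64, so only the doubted Hi control reached the Lo PMX arrays. The ALDOC call was lost without Hi PMX replicate 2 or 3 or Lo PMX replicate 2 or 3 (adjusted p = 0.0527 to 0.0685). ALDOA, the main aldolase, GPI, which isomerises glucose 6-phosphate, and TPI1, which interconverts the triose phosphates, differed by 0.08, 0.00 and 0.00.

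None of the 5 measured genes of lower glycolysis was called by limma between the treated groups, and none reached an unadjusted p under 0.05. Of all 18417 genes, 22.3% were called and 6031 reached an unadjusted p under 0.05, so with 5 genes a count of 0 is not far from the background. These enzymes carry the triose phosphates to pyruvate and include GAPDH, PGK1, ENO1, ENO2 and PKM. GAPDH lay between 14.03 and 14.24 on all 12 arrays, PGK1 between 12.26 and 12.50, ENO1 between 13.14 and 13.41, ENO2 between 8.73 and 9.11 and PKM between 12.89 and 13.02. Their differences between Lo PMX and Hi PMX ran from -0.14 (ENO2) to 0.08 (PGK1), and the 95% intervals from -0.35 (ENO2) to 0.23 (PGK1). A rise as large as that of HK2 or PFKFB3 thus lay outside each of these intervals.

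At the pyruvate branch, none of 3 genes was called by limma between the treated groups or reached an unadjusted p under 0.05. With 22.3% of all genes called, a count of 0 among 3 is close to the background. LDHA, which reduces pyruvate to lactate, measured 13.14, 13.22 and 13.24 in Hi PMX and 13.20, 13.18 and 13.23 in Lo PMX, a difference of 0.01 with an interval of -0.16 to 0.18. The pyruvate dehydrogenase kinases, which keep pyruvate out of the mitochondrion, varied more between replicates. PDK1 spread from 8.29 to 9.00 within Hi PMX alone and differed by -0.10 ± 0.14. PDK3 differed by 0.12 ± 0.11.

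Of the HIF alpha subunits, HIF1A was the only gene of the 33 genes called lower in this comparison. Its protein level is known to be set mainly by hydroxylation and degradation, so the transcript level is not a readout of HIF activity. HIF1A measured 12.39, 12.57 and 12.49 in Hi PMX and 11.98, 12.14 and 12.08 in Lo PMX. Hi controls gave 12.49, 12.52 and 12.28 and Lo controls 12.26, 12.29 and 12.53. Lo PMX was below all other arrays, and the difference from Hi PMX was -0.42 ± 0.09 (limma adjusted p = 0.00738). EPAS1, which encodes HIF-2 alpha, the subunit enriched in endothelium, measured 11.90, 11.65 and 11.67 in Hi PMX and 11.78, 11.77 and 11.66 in Lo PMX, a difference of 0.00 ± 0.10. EGLN1, the main HIF prolyl hydroxylase, stayed between 9.95 and 10.11 on all arrays. EGLN3, a hydroxylase that HIF itself is known to induce, lay between 6.38 and 6.69, close to the lower quartile of gene means (6.44), and differed by -0.08 ± 0.10.

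Of the 9 other HIF targets in the list, 3 rose and none fell, beside 22.3% of all genes called. CA12, a membrane carbonic anhydrase that helps cells handle acid, measured 8.20, 8.0 and 8.03 in Hi PMX and 9.06, 9.18 and 8.94 in Lo PMX. The difference was 0.98 ± 0.18 (limma adjusted p = 0.00252). Its controls were 8.23, 8.18 and 8.82 in Hi cells and 8.81, 8.96 and 8.26 in Lo cells, so without the 2 doubted arrays most of the step was already present in untreated Lo cells. P4HA1, a catalytic subunit of collagen prolyl 4-hydroxylase, measured 9.40, 9.09 and 9.22 in Hi PMX and 10.16, 10.20 and 9.85 in Lo PMX, a difference of 0.83 ± 0.21 (limma adjusted p = 0.0135). The P4HA1 call was lost without Hi PMX replicate 2 or Lo PMX replicate 2 (adjusted p = 0.0543 and 0.0515). Its Hi controls were 9.64, 9.26 and 9.63. Its Lo controls were 10.15, 9.87 and 9.12, and the first 2 of them lay within the range of Lo PMX. P4HA2, its paralogue, measured 10.68, 10.64 and 10.48 in Hi PMX and 10.74, 10.86 and 10.65 in Lo PMX, a difference of 0.15 ± 0.12 between groups that overlapped.

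NDRG1, a stress- and hypoxia-responsive gene, measured 11.81, 11.64 and 11.63 in Hi PMX, 11.74, 11.55 and 11.61 in Lo control and 12.27, 12.23 and 12.07 in Lo PMX, with Hi controls at 11.78, 11.59 and 11.66. Only the Lo PMX arrays stood apart, by 0.49 ± 0.09 from Hi PMX (limma adjusted p = 0.00162). The remaining targets did not pass the test. They were BNIP3 (-0.16 ± 0.07) and BNIP3L (0.09 ± 0.07), which are mitophagy receptors, ANKRD37 (-0.06 ± 0.07), the histone demethylase KDM3A (-0.06 ± 0.12) and MXI1 (0.11 ± 0.08), an antagonist of MYC. Over all 33 genes, the Lo PMX and Hi PMX arrays did not overlap for 10 genes that were higher and 3 that were lower, and the same held for 18.6% and 18.7% of all genes.

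Related isozymes moved by unequal amounts within the same arrays. The change from Hi PMX to Lo PMX was larger for SLC2A1 than for SLC2A3 by 1.27 (log2), for PFKFB3 than for PFKFB4 by 0.74, for P4HA1 than for P4HA2 by 0.69 and for HK2 than for HK1 by 0.55. EPAS1 exceeded HIF1A by 0.41, where HIF1A was called lower and EPAS1 was not called. Smaller gaps were seen for PFKP over PFKL (0.34) and ALDOC over ALDOA (0.17). For ENO2 against ENO1 (-0.18), PDK3 against PDK1 (0.21) and EGLN3 against EGLN1 (-0.09), the within-array differences overlapped between the groups. These pairs were formed after the values were seen, and the gaps were not tested.

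**Figure D2:**
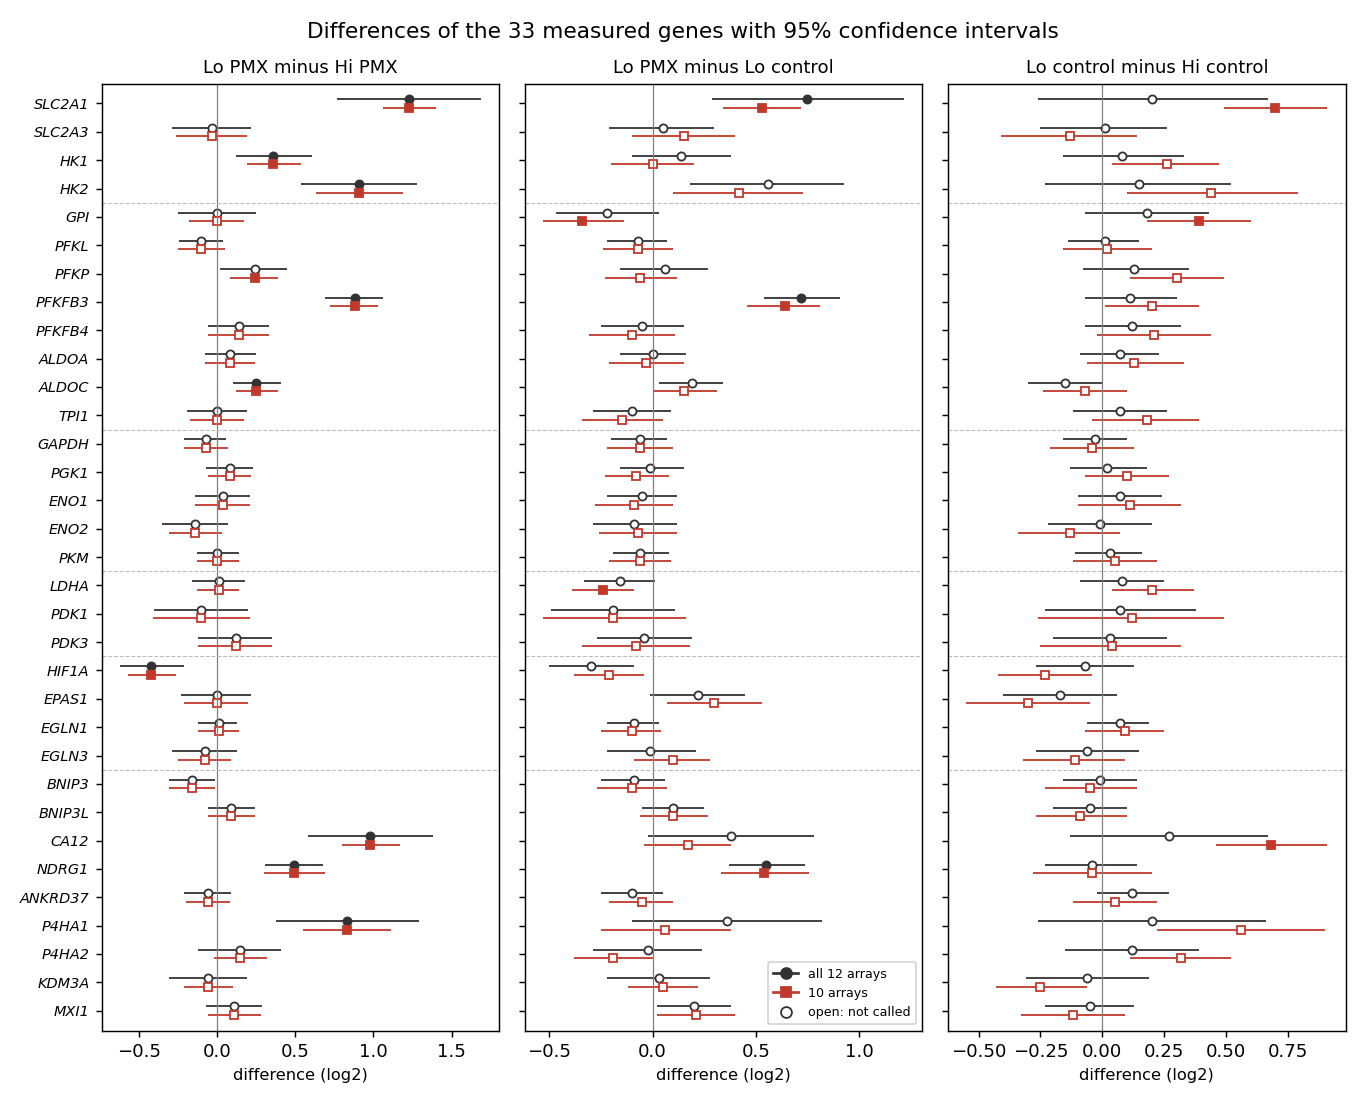
Difference in log2 value with its 95% confidence interval for the 33 measured genes in 3 comparisons, in order of role, from all 12 arrays (circles) and from 10 arrays (squares). Filled symbols are called (limma adjusted p under 0.05). SLC2A1 (1.23), CA12 (0.98), HK2 (0.91), PFKFB3 (0.88) and P4HA1 (0.83) lie to the right between the treated groups, while the genes from GAPDH to PDK3 lie near 0.

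Within Lo cells, the comparison asks what the drug changed at low folate. Against Lo controls, PMX raised 3 of the 33 genes with all arrays and lowered none, where 10.7% of all genes were called (5.60% higher). PFKFB3 rose by 0.72 ± 0.08 (limma adjusted p = 0.000216), NDRG1 by 0.55 ± 0.09 (adjusted p = 0.00134) and SLC2A1 by 0.75 ± 0.21 (adjusted p = 0.0407). The median over the 33 genes was -0.01, against 0.02 for all genes. With 10 arrays these 3 remained called, at 0.64 ± 0.08 for PFKFB3, 0.54 ± 0.10 for NDRG1 and 0.53 ± 0.09 for SLC2A1 (adjusted p = 0.000332, 0.00388 and 0.00198). With all arrays the SLC2A1 call was lost without Lo control replicate 3 (adjusted p = 0.156), without any Lo PMX array (0.0947 to 0.116) or Hi PMX array (0.051 to 0.0604), and without Hi control replicate 2, where the adjusted p lay just above the threshold. The replicate block on all 12 arrays ended it as well (adjusted p = 0.0598).

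In the 10 arrays, GPI fell by 0.34 on the log2 scale and LDHA by 0.24 (limma adjusted p = 0.0292 and 0.0443), where 11.0% of all genes were called (5.74% lower). GPI measured 12.24 and 12.23 in the Lo controls labelled replicates 1 and 2, 11.86 in replicate 3, and 11.89, 12.01 and 11.77 in Lo PMX. LDHA measured 13.47, 13.42 and 13.21 in Lo control and 13.20, 13.18 and 13.23 in Lo PMX, with Hi controls at 13.23, 13.26 and 13.38. For both genes the 2 undoubted Lo controls were higher than every Lo PMX array, while replicate 3 was not. With the replicate number as a block in the 10 arrays, 7 genes were called where 18.4% of all genes were, adding EPAS1 at 0.34 ± 0.08 and MXI1 at 0.25 ± 0.08 (adjusted p = 0.0153 and 0.0475). MXI1 measured 8.78, 8.84 and 8.84 in Lo control and 9.12, 8.99 and 8.95 in Lo PMX, with 8.84, 9.01 and 8.74 in Hi control and 8.97, 8.95 and 8.81 in Hi PMX. Its Lo PMX arrays lay above the Lo controls and overlapped both Hi groups.

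Other members that were called between the treated groups did not pass here. HK2 exceeded its Lo control by 0.56 ± 0.17 with all arrays and 0.42 ± 0.14 with 10 (limma adjusted p = 0.058 and 0.095). HIF1A differed by -0.30 ± 0.09 and -0.21 ± 0.08 (adjusted p = 0.0664 and 0.129). Without the array labelled Hi control replicate 3, both HK2 and HIF1A were called (adjusted p = 0.0297 and 0.0382). HK2 was also called without Lo control replicate 2 (0.0395) and without Lo PMX replicate 1 (0.0332). CA12 differed by 0.38 ± 0.18 and 0.17 ± 0.09, P4HA1 by 0.36 ± 0.21 and 0.06 ± 0.14, and HK1 by 0.14 ± 0.11 and 0.00 ± 0.09, none of them called.

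In Hi cells the drug left no called change. None of the 33 genes passed limma's test with all arrays or with 10, and 0.00% of all genes were called in either fit. At an unadjusted p under 0.05, 1 of the 33 genes passed in either fit, as did 266 of 18417 genes with all arrays and 335 with 10. That member was ALDOC, at -0.22 ± 0.07 with all arrays and -0.17 ± 0.07 with 10. PFKFB3 differed by -0.04 with an interval of -0.22 to 0.14, NDRG1 by 0.02 with -0.17 to 0.20, and SLC2A1 by -0.28 with -0.74 to 0.19, or 0.00 with -0.19 to 0.19 in 10 arrays. The median over the 33 genes was -0.03, against 0.00 for all genes.

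Whether the drug's effect differed between Lo and Hi cells was tested as an interaction. PFKFB3 had a larger response in Lo cells in both fits, by 0.76 ± 0.12 with all arrays and 0.68 ± 0.11 with 10 (limma adjusted p = 0.00408 and 0.0058). NDRG1 differed by 0.54 ± 0.12 (adjusted p = 0.0263) and ALDOC by 0.40 ± 0.10 (adjusted p = 0.0366) with all arrays. Thus 3 of 33 genes were called, where 4.81% of all genes were (2.57% higher). With 10 arrays, 2 were called, where 4.16% of all genes were (2.02% higher), namely PFKFB3 and SLC2A1 (0.53 ± 0.12, adjusted p = 0.0334), while NDRG1 (0.53 ± 0.14, adjusted p = 0.0566) and ALDOC (0.32 ± 0.10, adjusted p = 0.114) were not. With the block in 10 arrays, where 9.44% of all genes were called, NDRG1 was called again (adjusted p = 0.00444), and ALDOC was not (adjusted p = 0.0616). With all arrays, SLC2A1 had 1.03 ± 0.30 and HK2 0.76 ± 0.24 (adjusted p = 0.0732 and 0.096).

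The NDRG1 call of the interaction was lost without Hi PMX replicate 2 or 3, Lo control replicate 2 or 3, or Lo PMX replicate 1 or 2 (adjusted p = 0.0572 to 0.0694). The ALDOC call was lost without any of 9 arrays, namely Hi control 2 or 3, Hi PMX 2 or 3, Lo control 2 or 3, or any Lo PMX array (adjusted p = 0.0641 to 0.0897).

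**Figure D3:**
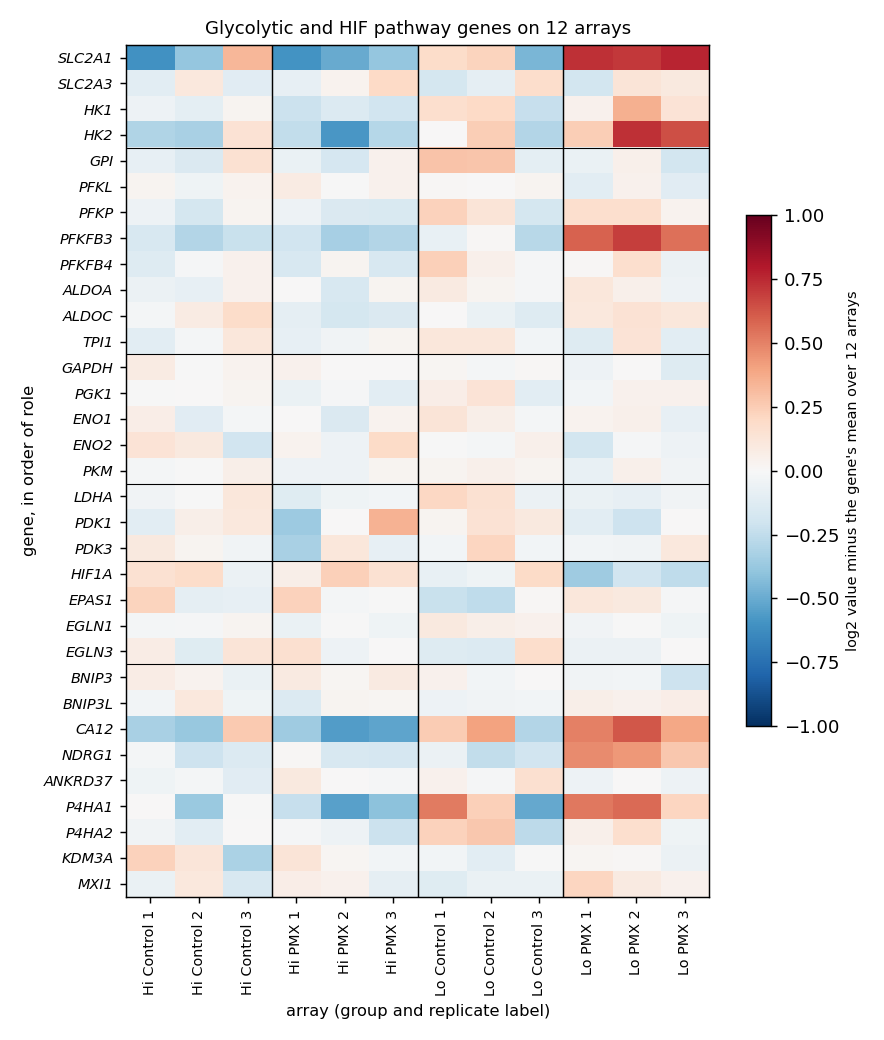
Log2 value of each of the 33 genes minus the gene's mean over 12 arrays, by array (columns, group and replicate label) and gene (rows, in order of role), with the colour scale ending at 1 below and above the mean. SLC2A1 and CA12 show the array labelled Hi control replicate 3 near the Lo controls (SLC2A1 at 11.49) and Lo control replicate 3 near the Hi arrays (SLC2A1 at 10.70), while PFKFB3 and NDRG1 are raised on the Lo PMX arrays alone.

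The comparison of untreated cells depended on the 2 doubted arrays, and leaving them out because of their values favours a difference between Lo and Hi controls. With all arrays, Lo and Hi controls differed in none of the 33 genes, 0.00% of all genes were called, and at an unadjusted p under 0.05 none of the 33 and 387 of all genes passed. With 10 arrays, 3 genes were higher in Lo controls, where 7.17% of all genes were called (3.67% higher). SLC2A1 rose by 0.70 ± 0.10 and CA12 by 0.68 ± 0.10 (limma adjusted p = 0.000876 and 0.00166). GPI rose by 0.39 ± 0.10 (adjusted p = 0.0311), from 11.87 and 11.81 to 12.24 and 12.23. The median over the 33 genes was 0.09, against -0.01 for all genes.

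With the replicate block in 10 arrays, 8 genes were called, where 13.2% of all genes were. The added genes were P4HA1 (0.56 ± 0.11), P4HA2 (0.32 ± 0.08) and PFKP (0.30 ± 0.07), which were higher in Lo controls, and EPAS1 (-0.30 ± 0.09) and KDM3A (-0.25 ± 0.07), which were lower (limma adjusted p = 0.00471, 0.0161, 0.0176, 0.0435 and 0.0399). KDM3A measured 10.16, 10.05 and 9.61 in Hi control and 9.90, 9.82 and 9.92 in Lo control, with 10.06, 9.95 and 9.90 in Hi PMX and 9.95, 9.94 and 9.87 in Lo PMX. P4HA2 measured 10.66, 10.59 and 10.70 in Hi control and 10.92, 10.96 and 10.43 in Lo control. EPAS1 gave 11.89, 11.58 and 11.59 in Hi control and 11.45, 11.42 and 11.68 in Lo control. In each of the 3 genes the array labelled replicate 3 of at least 1 group lay outside the range of its other replicates. PFKFB3 (0.20 ± 0.09), NDRG1 (-0.04 ± 0.11) and HK2 (0.44 ± 0.16) were not called in the 10 arrays.

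In the 10 arrays, which were chosen by the values themselves, the genes followed several courses. With all arrays, none of the differences between Lo and Hi controls was called. SLC2A1 was higher in Lo than in Hi controls and rose again with the drug. CA12 was higher in Lo controls, and its further difference with the drug was not called. PFKFB3 and NDRG1 rose with the drug in Lo cells. GPI was higher in Lo controls and fell with the drug in Lo cells, and Lo PMX minus Hi PMX was 0.00 with an interval of -0.18 to 0.17. These comparisons share the Lo control arrays, so they are given side by side and not as independent results.

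Genes outside the list showed where the neighbouring pathways stood in treated cells. Of 29 other known HIF targets, 7 rose and 2 fell between Hi PMX and Lo PMX with all arrays, with a median of 0.16, where 22.3% of all genes were called. The 4 with the smallest p were VEGFA (1.05 ± 0.10), the endothelial growth factor, the growth factor binding protein IGFBP3 (0.78 ± 0.11), the circadian repressor BHLHE40 (1.75 ± 0.26) and the collagen lysyl hydroxylase PLOD1, which fell by 0.44 (limma adjusted p = 4.32e-05, 0.000439, 0.000621 and 0.0032). With 10 arrays, 10 rose and 5 fell (27.7% of all genes called), led by ANGPTL4, a lipase inhibitor (2.06 ± 0.07, adjusted p = 3.75e-09). Within Lo cells, PMX raised 4 of the 29 and lowered 3 (10.7% of all genes called). VEGFA (0.85 ± 0.10), IGFBP3 (0.53 ± 0.11), the heme oxygenase HMOX1 (0.39 ± 0.09) and BHLHE40 (1.07 ± 0.26) rose (adjusted p = 0.00022, 0.00763, 0.0165 and 0.0188). With 10 arrays 6 rose and 3 fell (11.0% of all genes called), and the smallest p belonged to EDN1, which encodes the vasoconstrictor endothelin-1 and fell by 1.14 (adjusted p = 2.78e-05). For VEGFA, BHLHE40 and IGFBP3 the drug response was larger in Lo than in Hi cells with all arrays (interaction 1.04, 1.55 and 0.63, adjusted p = 0.00173, 0.0325 and 0.0363), and with 10 arrays this held for VEGFA and BHLHE40 (0.88 and 0.93, adjusted p = 0.0025 and 0.0011). EDN1 had a lower response in Lo cells there (-1.13 ± 0.14, adjusted p = 0.000924).

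Among 11 genes that regulate HIF, 2 were called between the treated groups with all arrays (22.3% of all genes). They are parts of the VHL ubiquitin ligase: RBX1 fell by 0.55 and ELOC rose by 0.28 (limma adjusted p = 0.0107 and 0.0337). With 10 arrays VHL (-0.24 ± 0.07) and CITED2 (0.27 ± 0.08) were called as well (adjusted p = 0.02 and 0.0326).

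Of 15 further glycolytic isozymes and transporters, 5 rose and 1 fell, with a median of 0.08, where 22.3% of all genes were called. SLC2A12 (1.22 ± 0.24) and SLC2A13 (0.84 ± 0.17), which encode the transporters GLUT12 and HMIT, rose, as did TIGAR (0.65 ± 0.14), a p53 target whose phosphatase lowers fructose 2,6-bisphosphate, opposite to the kinase activity of PFKFB3. The monocarboxylate transporter SLC16A7 fell by 1.08 (limma adjusted p = 0.0034, 0.00376, 0.00554 and 0.01). TIGAR also rose with the drug within Lo cells (0.54 ± 0.14, adjusted p = 0.0255).

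The remaining lists are read against the same 22.3%, and the counts in the pyruvate, pentose phosphate and tricarboxylic acid lists lay near or below it. Side branches of the hexose pool held 8 measured genes, of which 3 rose and none fell. They were GFPT1 (0.70 ± 0.11), the entry enzyme of hexosamine synthesis, the phosphopentomutase PGM2 (0.79 ± 0.14) and the glycogen phosphorylase PYGL (0.90 ± 0.22), with limma adjusted p = 0.00112, 0.00223 and 0.011. Of 11 genes at the entry of pyruvate into mitochondria, the phosphatase PDP1 rose (0.49 ± 0.16), and the kinases PDK2 and PDK4 fell by 0.57 and 0.85 (adjusted p = 0.0467, 0.00604 and 0.0385). In the pentose phosphate pathway, 1 of 7 genes was called, TKTL1 (0.33 ± 0.10, adjusted p = 0.0399). In the tricarboxylic acid cycle, 2 of 13 rose and 1 fell. IDH3A, a catalytic subunit of isocitrate dehydrogenase, rose by 0.78 ± 0.08 between the treated groups and by 0.65 ± 0.08 with the drug within Lo cells (adjusted p = 5.19e-05 and 0.000226).

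**Figure D4:**
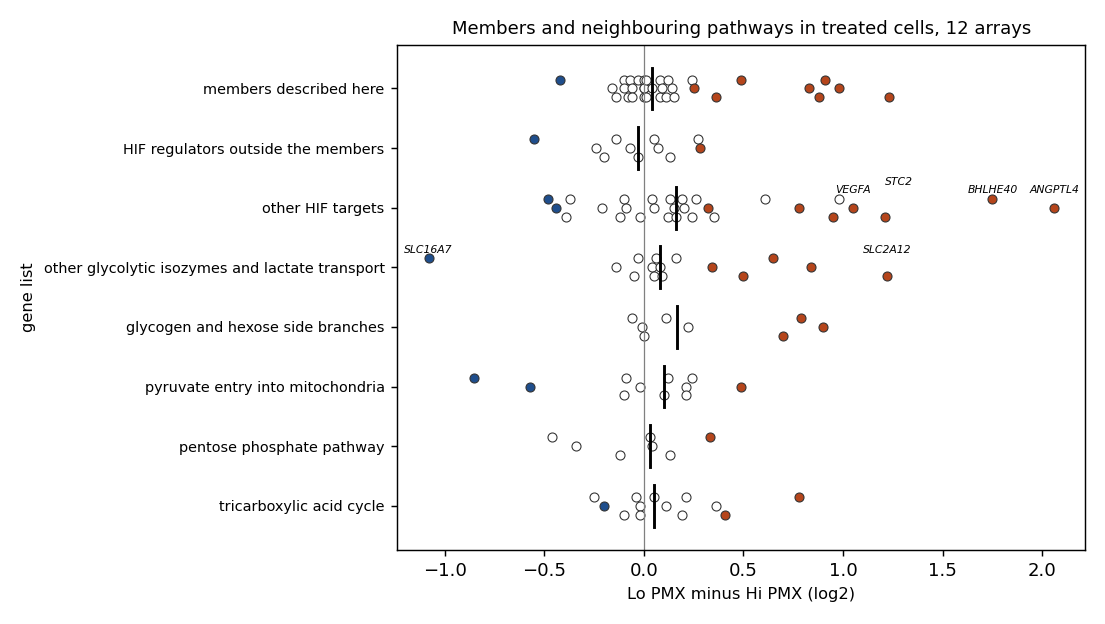
Difference in log2 value between Lo PMX and Hi PMX (horizontal axis) for the 33 genes and for 7 neighbouring lists (rows), with 12 arrays. Points are genes, red and blue ones were called higher and lower, and bars are list medians. The medians lie close to 0 in every list (0.04 in the 33 genes and 0.16 in the other HIF targets), with single genes such as BHLHE40 (1.75) and SLC16A7 (-1.08) far from them.

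Endothelial markers moved in the same comparison. Between Hi PMX and Lo PMX, where 22.3% of all genes were called, 10 of 12 endothelial markers fell and none rose, with a median of -0.87, and the mean over the 12 ranged from 10.73 to 10.90 on the Hi PMX arrays and from 9.73 to 9.85 on the Lo PMX arrays. Of 10 epithelial and lung carcinoma markers, AKR1B10 (2.82 ± 0.59) and EPCAM (0.38 ± 0.12) rose and none fell, a share below that of all genes, with a median of 0.10. Their mean, which AKR1B10 weighs on most, ranged from 7.85 to 7.95 in Hi PMX and from 8.28 to 8.30 in Lo PMX. Of 7 fibroblast and smooth muscle markers, ACTA2 rose (0.81 ± 0.15), with means of 6.81 to 6.95 and 6.97 to 7.07. No leukocyte marker of 5 was called, with means of 6.04 to 6.18 and 6.13 to 6.17. The part of the marker changes in the differences of the glycolytic and HIF genes was not tested.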

How the data were processed

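Total RNA had been biotin-labelled and hybridised to Affymetrix arrays. The deposited values are on a log2 scale and had been computed by the authors with RMA in Partek 6.5, per the submitters' processing notes; the settings of RMA are not given in the sources used here. Detection calls were not used, so a detection limit is unknown. The table held 33297 probe sets: 19460 carried a single gene symbol in the array's annotation, 1754 carried more, and 12083 carried no entry. Only those with a single symbol were used, the brightest by mean for the 769 genes with more than 1, which left 18417 genes.

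Group means were fitted in R 4.3.3 with lmFit and eBayes of limma 3.58.1 (12 arrays, 8 residual degrees of freedom, or 6 with 10 arrays). The 5 two-sided contrasts were adjusted by Benjamini-Hochberg over all 18417 genes and called at an adjusted p under 0.05. The script was tested on simulated data. All 33 measured members are named, with values on every array for those called with all arrays or with 10, with or without the block. Of the neighbouring lists, up to 4 called genes with the smallest p per list and contrast were open to naming. The members and lists were chosen with earlier results of these data known.

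Replicate numbers come from the sample titles. Deviations from group means correlated above 0.1 in 11 of 18 same-numbered pairs with all arrays (-0.656 to 0.514), so numbers were not taken as pairs there, and in 13 of 13 pairs with 10 arrays (0.115 to 0.543), where the blocked fit is given beside results it changed. With 10 arrays the controls left in each group deviate as mirror images, so these pairs are not independent. Hi and Lo controls labelled replicate 1 gave 0.451, as did those labelled replicate 2. Alternatives tried were other arrays, the block, median centring, quantile normalization, a minimum of 5 on gene means, the mean of probe sets, other moderation, and fits of the compared groups alone.

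Promoter windows were taken from RefSeq (GRCh38.p14), used for 30 of 33 genes, and searched on both strands.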

Additional observations from a re-analysis of the deposited data

Results flagged for a closer look

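The response to pemetrexed was compared between the folate levels by an interaction test (limma, called at an adjusted p under 0.05). This test called 3 of the 33 genes with all arrays and 2 with 10, beside 4.81% and 4.16% of all genes. With all arrays the Lo response exceeded the Hi response by 0.76 (log2) for PFKFB3, by 0.54 for NDRG1 and by 0.40 for ALDOC. For SLC2A1 it did so by 0.53 with the 10 arrays left without the controls labelled replicate 3. Of these, only PFKFB3 was called both with all arrays and with 10. SLC2A1 missed the threshold with all arrays (limma adjusted p = 0.0732), and NDRG1 and ALDOC missed it with 10 (0.0566 and 0.114). For ALDOC the difference came from a lower Hi PMX level (6.63 ± 0.05, SD, n = 3, against 6.85 ± 0.10 in Hi control) together with a higher Lo PMX level (6.89 ± 0.02 against 6.70 ± 0.07), and neither change was called by itself.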

How the results depend on the processing

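No result changed direction while called under any alternative run. The count of called members in Lo PMX against Lo control was 3 with all arrays and 5 without both control arrays labelled replicate 3. It was 7 with the replicate block added to that. Of all genes, 10.7%, 11.0% and 18.4% were called in these fits. In Lo control against Hi control, the count was 0, 3 and 8 members, beside 0.00%, 7.17% and 13.2% of all genes. With the replicate block on all 12 arrays the counts were 2 and 0 for these, 9 for Lo PMX against Hi PMX, 0 for Hi PMX against Hi control and 3 for the interaction. Of all 18417 genes, that fit called 2248, 0, 4492, 0 and 994 in the same order. Leaving out each array in turn gave 2 to 5 members in Lo PMX against Lo control, 0 to 0 in Lo control against Hi control and in Hi PMX against Hi control, 6 to 10 in Lo PMX against Hi PMX, and 1 to 4 in the interaction. The counts over all genes moved as well. They were 1170 to 2563 in Lo PMX against Lo control, 2855 to 4607 in Lo PMX against Hi PMX and 443 to 956 in the interaction. Over all genes, the block with 10 arrays called 3385 genes in Lo PMX against Lo control, against 1978 in the fit of all arrays. Median centring, quantile normalization, the filter on dim genes and the mean of probe sets left each of the 165 gene-by-comparison results on its side of the threshold. Direction was compared only for called results. Among the members, only TPI1 had more than 1 probe set, and none had a mean under 5. The filter and the mean of probe sets could thus hardly move a member. Trend and robust moderation ended the SLC2A1 call in Lo PMX against Lo control (adjusted p = 0.0571). Without moderation that call (0.135), the HK1 and P4HA1 calls in Lo PMX against Hi PMX (0.0814 and 0.0613) and the NDRG1 interaction (0.0664) were lost, and EGLN1 was called lower in Lo PMX against Lo control (0.04); over all genes it called 291 in the interaction, against 886, and 1262 in Lo PMX against Lo control, against 1978. Half-widths of the 95% confidence intervals had a median of 0.20 in the simple contrasts with all arrays, which limits the differences that could be resolved. For the isozyme pairs, an alternative chosen after seeing the data left out each of the 6 treated arrays in turn. Every gap moved by less than 1 SD of the replicates. Leaving out 1 of 3 arrays can never move a mean by that much, so this does not test how stable the gaps are.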
